A study of Mus musculus with 24 samples.

Results

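The genes described here are 9 members of the BCL2 family that lie outside direct control by p53: the 4 pro-survival genes Bcl2, Bcl2l1, Bcl2l2 and Mcl1, and the 5 pro-death genes Bak1, Bcl2l11, Bid, Bad and Bmf. They were taken by symbol from the 23364 gene symbols of the count data, where all 9 were found, and all 9 were among the 21456 genes that passed the filter on low counts. That the expression of these genes does not depend on p53 is the label of the set and was not tested here. Their levels were followed through 3 populations of mouse blood stem and progenitor cells with and without the histone H2A deubiquitinase Mysm1, and pro-survival members were set against pro-death members.

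The BCL2 family decides whether the outer membrane of the mitochondrion is breached, the step that releases cytochrome c and starts the caspase cascade of apoptosis. Bak1 encodes BAK, an effector that forms the pore together with its relative BAX. The BH3-only proteins BIM (Bcl2l11), BID, BAD and BMF sense stress or loss of growth factors and either activate the effectors or occupy the pro-survival proteins BCL2, BCL-XL (Bcl2l1), BCL-W (Bcl2l2) and MCL1, which hold the effectors in check. Haematopoietic stem cells are known to need MCL1 for survival, and BCL-XL is known for the survival of megakaryocytes, platelets and erythroid cells. In p53 responses of blood cells, Bax, Bbc3 (PUMA) and Pmaip1 (NOXA) are the family members usually read as direct p53 targets.

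Bone marrow cells of C57BL/6 mice aged 8 to 12 weeks, males and females together, were sorted as lineage-negative, cKit-positive, Sca1-positive, CD150-positive and Flt3-negative cells. They were divided into haematopoietic stem cells (HSC, CD34- CD48-), multipotent progenitors 1 (MPP1, CD34+ CD48-) and multipotent progenitors 2 (MPP2, CD34+ CD48+). KO libraries (n = 3 in each population) came from Mysm1 fl/fl CreERT2 mice injected 8 times within 16 days with tamoxifen, each dose 0.15 mg/g. Het libraries (n = 3) came from Mysm1 +/fl CreERT2 mice given the same tamoxifen, and Sham libraries (n = 2) from Mysm1 fl mice given corn oil, whose label names no Cre. Het and KO thus share the Cre driver and the drug, while Sham differs from both in drug and, as far as the labels go, in Cre. The inducible Cre is named without a promoter, so deletion cannot be taken as limited to blood cells. Cells of several mice were pooled for each library, and p-values therefore reflect how much such pools vary, not single mice. The labels number the replicates 1, 2_3 and 4, and there is no Sham library with the number 1.

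The 24 libraries held 18823971 to 53196624 counts, with 15740 to 21150 genes detected. HSC KO 1 and HSC Het 2_3 had the fewest genes detected, 15740 and 15932, and the changes from Het to KO in HSC are also given without them. The deletion removes exon 3 of Mysm1. Reads of that exon alone were not counted, and how complete the deletion was in the sorted cells was not tested. Over the whole gene Mysm1 stood at 96.3 to 121 CPM (counts scaled to library size) in HSC KO and at 109 to 138 in HSC Het. In MPP1 it stood at 76.7 to 119 in KO and 115 to 118 in Het, and in MPP2 at 88.1 to 102 and 98.5 to 112. Of the sort markers, Cd48 stood at 13.8 to 56.9 CPM in MPP2 and at 0 to 2.81 in HSC and MPP1 libraries, in the order of the sort. Cd34 followed it only in part, at 44.1 to 106 CPM in HSC and 119 to 215 in MPP1 but 51.5 to 272 in MPP2, where the Sham libraries (51.5 and 104) overlapped HSC Sham (82.9 and 94.4). Flt3, sorted as negative, was read at 15.3 to 24.8 CPM in HSC and 4.50 to 98.0 in MPP2, and Ly6a, which encodes Sca1, ran from 16.8 to 26.7 in HSC down to 0.825 to 8.48 in MPP2. No pair of libraries was identical (0 pairs), and the highest correlation between any pair was 0.976.

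On the mm9 assembly (NCBIM37, with a GENCODE annotation) all 9 are protein-coding genes. Bcl2 lies at chr1:108434755-108610851 and Mcl1 at chr3:95462643-95467099. Bcl2l1 lies at chr2:152593052-152657464, on the same chromosome as Bcl2l11 at chr2:127951774-127988283 and Bmf at chr2:118354493-118375423. Bcl2l2 was found at chr14:55502214-55507071, Bak1 at chr17:27156755-27165954, Bid at chr6:120841948-120866871 and Bad at chr19:7016351-7026388. Exons of 5 members overlap exons of another gene: Bid shares 628 bases with Bcl2l13, Bad 517 with Gpr137, Bak1 357 with Ggnbp1 and Bcl2 558 with D630008O14Rik, all on the opposite strand, and Bcl2l2 shares 594 with Gm20521 on the same strand. The kit marks strand, but whether the counting used it is not given in the sources used here, so reads in those stretches may not be separable between the partners.

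The 300 bases before the most upstream annotated start are shown for 3 members: Bcl2l1 and Bak1, the members called between KO and Het in the mean of the populations below, and Bcl2l11, the textbook target of FOXO factors. Capitals mark TGTTTAC, the core bound by forkhead factors of the FOXO type, or its reverse complement. The windows are chr2:152657465-152657764 (minus strand), chr17:27165955-27166254 (minus strand) and chr2:127951474-127951773 (plus strand), read 5′ to 3′ in the direction of the gene from the mm9 genome.
Bcl2l1: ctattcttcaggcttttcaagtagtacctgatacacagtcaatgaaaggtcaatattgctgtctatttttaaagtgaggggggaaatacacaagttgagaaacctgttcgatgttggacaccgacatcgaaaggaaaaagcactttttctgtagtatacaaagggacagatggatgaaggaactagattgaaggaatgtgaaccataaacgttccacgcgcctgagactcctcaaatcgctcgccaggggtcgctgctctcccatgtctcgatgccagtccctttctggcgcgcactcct
Bak1: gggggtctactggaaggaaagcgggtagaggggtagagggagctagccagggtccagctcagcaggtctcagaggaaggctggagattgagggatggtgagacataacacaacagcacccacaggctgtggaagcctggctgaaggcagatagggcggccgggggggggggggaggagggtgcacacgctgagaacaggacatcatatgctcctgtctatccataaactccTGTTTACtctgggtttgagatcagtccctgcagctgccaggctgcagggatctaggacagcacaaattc
Bcl2l11: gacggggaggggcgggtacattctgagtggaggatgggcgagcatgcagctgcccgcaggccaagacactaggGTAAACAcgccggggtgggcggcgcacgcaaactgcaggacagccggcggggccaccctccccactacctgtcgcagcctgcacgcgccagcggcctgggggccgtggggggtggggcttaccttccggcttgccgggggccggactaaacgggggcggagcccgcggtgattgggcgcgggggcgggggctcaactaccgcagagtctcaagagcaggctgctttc
The TGTTTAC core was found on either strand in 2 of the 9 member windows, from -69 to -63 of the Bak1 start and from -227 to -221 of the Bcl2l11 start, and in 3.46% of the 22374 gene starts searched the same way. A p53 half-site, the STAT-type palindrome TTCNNNGAA, the E-box CACGTG and the GATA-type AGATAA were each found in 0 of the 9 windows, against 7.76%, 8.22%, 7.39% and 11.5% of all windows. These matches are letters in a window and say nothing of binding in these cells, and a gene can start elsewhere than at its most upstream annotated start. The windows differ in base composition: Bcl2l11 has 71.0% G and C with 27 CpG, Bak1 58.0% with 4 and Bcl2l1 46.0% with 12.

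Levels can be set side by side between genes only per length, and CPM were therefore divided by the exon length in kilobases that the authors deposited with the counts. On that scale Mcl1 was the leading member in 24 of 24 libraries, with a median of 69.5 and a range of 59.9 to 93.6. Its share of the summed level of the 9 genes ran from 41.5% to 55.5%. Bak1 came next, at a median of 17.2 (12.0 to 29.9), and was the second gene in 19 libraries. Bcl2 (median 12.6), Bcl2l1 (12.5), Bad (11.8) and Bid (11.7) followed with ranges that overlapped each other and that of Bak1, so that no order among them held beyond their spread. Bcl2l2 was lower, at 5.35 (2.95 to 6.75), and was the seventh gene in 23 libraries. The BH3-only genes Bcl2l11, at 0.675 (0.367 to 1.06), and Bmf, at 0.346 (0.129 to 1.48), were lowest in all 24 libraries and overlapped each other. The deposited length of Bcl2l11, 14685 bases, is far above the 5036 of its longest annotated transcript, on which its median would be 1.97, still below that of Bcl2l2. On that length the medians of Bcl2 and Bak1 would be 17.1 and 14.4, and Bcl2 would come second, so the place of Bak1 depends on the length used.

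**Figure D1:**
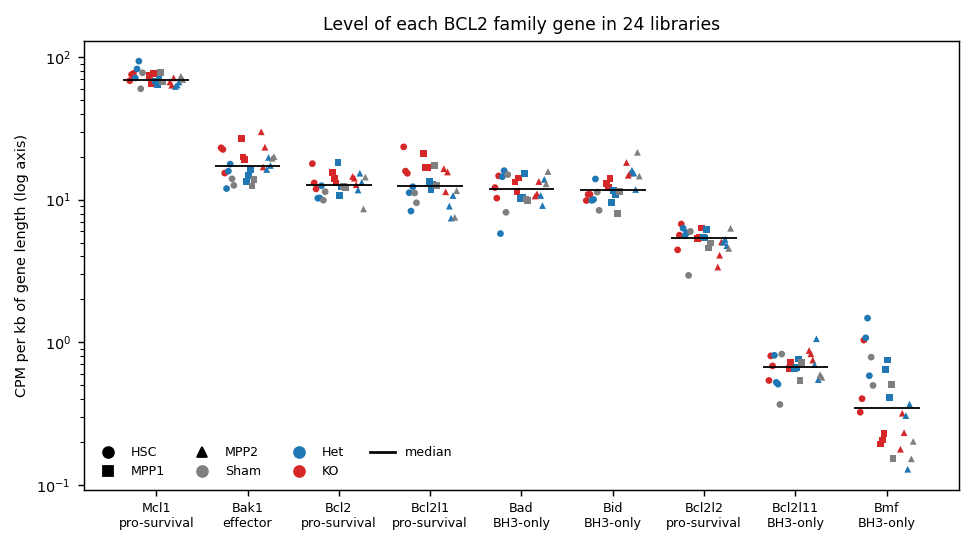
Level of each of the 9 genes in CPM per kilobase of gene length on a log axis, 1 point per library (24), with marker shape for the population, colour for the genotype and a black line at the median. Mcl1 lies above every other gene in all 24 libraries, and Bcl2l11 and Bmf lie below the rest.

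Replicates varied least for Mcl1, with a biological coefficient of variation (the fitted spread between replicates relative to the level) of 0.143, and most for Bmf, at 0.598. Bmf rested on 16 to 210 counts per library, whereas Mcl1 had 5244 to 11833. The other 7 members had coefficients between 0.179 and 0.298.

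Among the pro-survival genes, Mcl1 overlapped between KO and Het in every population. In HSC it stood at 238, 263 and 267 CPM in KO, at 249, 288 and 326 in Het and at 209 and 270 in Sham. In MPP1 the KO libraries had 260, 226 and 267, Het 237, 222 and 242, and Sham 271 and 233. In MPP2 they had 233, 221 and 249, against 217, 222 and 233 in Het and 256 and 243 in Sham. Only in MPP2 did Het lie below Sham, with 2 libraries, without overlap, at a log2 change of -0.15 ± 0.15 (SE) that did not pass. The share of all genes apart in this way is not reported here. Over all 24 libraries the highest Mcl1 value was 1.56 times the lowest. As the mean over the 3 populations, the 95% interval of the log2 change from Het to KO was -0.16 to 0.16.

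Bcl2l1, which encodes BCL-XL, was the only member whose KO libraries lay above its Het libraries in all 3 populations. In HSC it read 55.6, 37.6 and 36.3 CPM in KO against 26.5, 19.7 and 29.2 in Het and 26.4 and 22.6 in Sham. In MPP1 it read 50.0, 40.0 and 39.8 in KO against 31.6, 28.0 and 30.4 in Het, and in MPP2 39.1, 26.9 and 37.1 against 21.4, 17.6 and 25.3. In each population the lowest KO library lay above the highest Het library, a pattern that 0.881% of all genes tested showed in that direction. The Sham libraries did not separate as cleanly: they had 41.1 and 29.9 CPM in MPP1 and 17.8 and 27.4 in MPP2, and overlapped KO in both. The log2 changes from Het to KO were 0.78 ± 0.22 (SE) in HSC, 0.53 ± 0.22 in MPP1 and 0.68 ± 0.22 in MPP2, or folds of 1.72, 1.44 and 1.60. None passed the test within a population, with edgeR quasi-likelihood adjusted p = 0.0798, 0.534 and 0.326.

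Bcl2, the founding member of the family, had 174, 128 and 116 CPM in HSC KO against 99.6, 99.99 and 122 in Het and 96.4 and 111 in Sham. Its log2 change in HSC was 0.38 ± 0.19 (edgeR adjusted p = 0.353), and KO and Het overlapped. Without HSC KO 1 that change was 0.18, and without HSC KO 1 and HSC Het 2_3 together 0.14. In MPP1 it had 150, 137 and 127 in KO against 178, 103 and 119 in Het, and in MPP2 141, 138 and 124 against 114, 149 and 129. The groups overlapped in both, and the Bcl2 log2 changes there were 0.05 ± 0.19 and 0.04 ± 0.19. Bcl2l2 stayed between 10.2 and 23.4 CPM in all libraries, and its changes from Het to KO were -0.08 ± 0.24 in HSC, 0.01 ± 0.24 in MPP1 and -0.27 ± 0.24 in MPP2, with overlap in each.

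**Figure D2:**
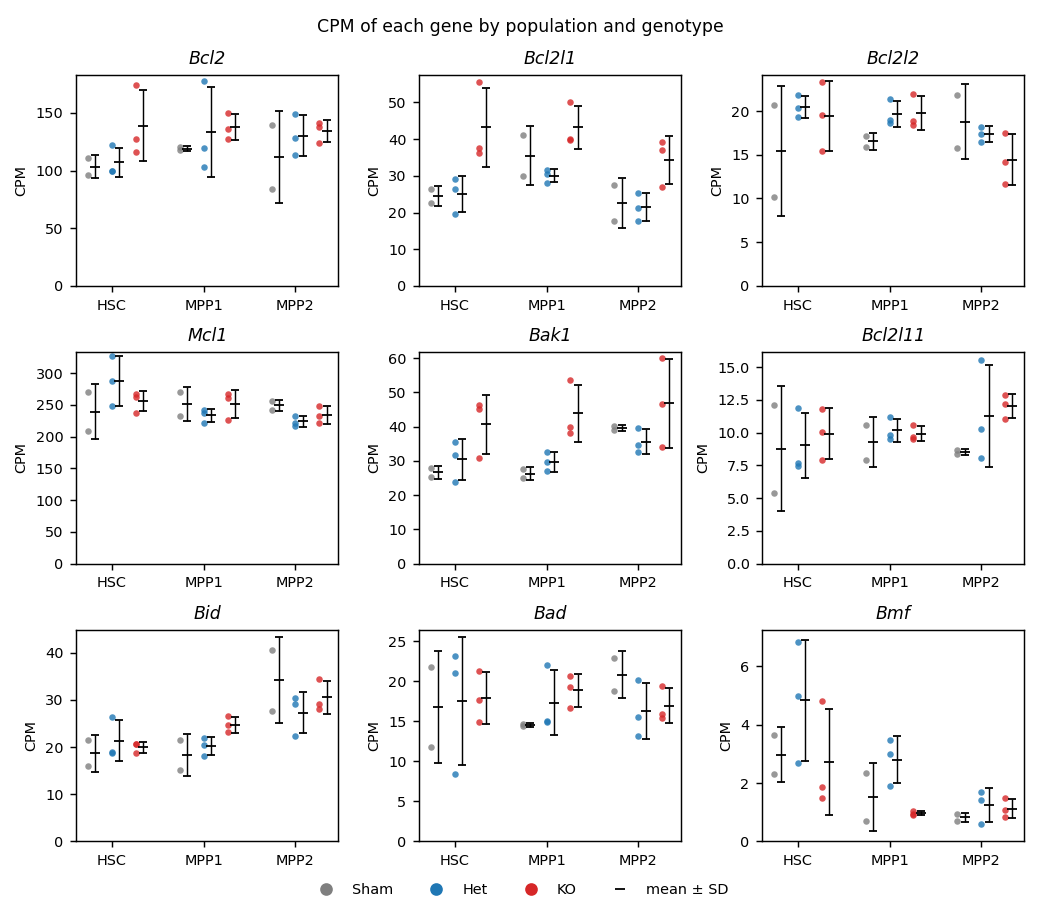
CPM of each of the 9 genes in its own panel with an axis from 0, by population on the x axis and genotype by colour, 1 point per library with the group mean ± SD (n = 3 for KO and Het, n = 2 for Sham). Bcl2l1 in KO lies above Het without overlap in HSC, MPP1 and MPP2, and Bmf is lower in MPP2 than in HSC.

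Of the pro-death genes, the pore-forming effector Bak1 stood at 46.3, 45.1 and 30.7 CPM in HSC KO against 23.97, 31.7 and 35.6 in Het and 28.0 and 25.2 in Sham. In MPP1 it had 53.5, 39.9 and 38.3 in KO against 26.9, 29.6 and 32.6 in Het and 25.0 and 27.6 in Sham, with no overlap (the share of all genes apart from Sham in this way is not reported here). In MPP2 it had 59.9, 33.9 and 46.7 against 32.6, 39.6 and 34.8 in Het and 39.1 and 40.2 in Sham. KO libraries were thus apart from Het only in MPP1, and library 1 was the highest KO library in all 3 populations. The log2 changes from Het to KO were 0.42 ± 0.20, 0.56 ± 0.20 and 0.39 ± 0.20 in HSC, MPP1 and MPP2, with edgeR adjusted p = 0.341, 0.443 and 0.917.

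The BH3-only genes showed no difference between KO and Het that passed the test. Bid, which caspase 8 cleaves into its active form, had 24.7, 23.1 and 26.5 CPM in MPP1 KO against 18.1, 21.8 and 20.5 in Het, without overlap, at a log2 change of 0.30 ± 0.21. In HSC and MPP2 the Bid groups overlapped, with changes of -0.10 ± 0.21 and 0.17 ± 0.21. Bad, which growth factor kinases phosphorylate into an inert form, ran from 8.40 to 23.2 CPM over all libraries, with log2 changes from Het to KO of 0.03 ± 0.29, 0.12 ± 0.29 and 0.05 ± 0.29. Bcl2l11, which encodes the broad BH3-only activator BIM, ran from 5.39 to 15.6 CPM, with log2 changes of 0.14 ± 0.31, -0.03 ± 0.31 and 0.09 ± 0.31. For both genes KO and Het overlapped in every population.

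Bmf, whose product is held at the cytoskeleton until released, was the only member lower in KO without overlap in any population. In MPP1 it had 0.899, 0.958 and 1.06 CPM in KO against 3.00, 3.48 and 1.90 in Het, with Sham at 2.35 and 0.708. In HSC it had 1.499, 1.87 and 4.80 in KO against 4.98, 6.85 and 2.70 in Het, and in MPP2 0.825, 1.48 and 1.08 against 1.42, 0.597 and 1.71. The log2 changes were -0.83 ± 0.72 in HSC, -1.52 ± 0.74 in MPP1 and -0.15 ± 0.72 in MPP2, with edgeR adjusted p = 0.673, 0.573 and 1.00. In HSC the Bmf change moved to -0.54 when HSC KO 1 was left out, to -0.49 when HSC Het 2_3 was, to -0.20 when both were and to -1.52 when HSC KO 4 was. These intervals are wide, from -3.03 to -0.02 in MPP1, where the KO libraries held 26 to 40 counts of Bmf.

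Counted over the members, KO against Het gave 0 of 9 past the test in HSC, 0 of 9 in MPP1 and 0 of 9 in MPP2 by edgeR. Among all genes tested 0.615%, 0.0559% and 0.415% were called in those comparisons and 0 of 9 is near those shares. At an unadjusted p under 0.05 there were 2 members in HSC (Bcl2l1 and Bak1, both higher), 3 in MPP1 (Bcl2l1 and Bak1 higher, Bmf lower) and 1 in MPP2 (Bcl2l1, higher), where 14.5%, 8.67% and 5.63% of all genes reached that level. DESeq2 and limma-trend called 0 members in each, and limma on the authors' deposited normalized table called Bcl2l1 in HSC and 0 elsewhere. Groups that did not overlap were found for 1 member higher in KO in HSC, 3 in MPP1 and 1 in MPP2, and for 1 lower in MPP1, against 7.16%, 8.49%, 9.06% and 13.2% of all genes. The median log2 change of the 9 members was 0.03, 0.10 and 0.07, beside 0.03, -0.11 and -0.06 over all genes tested. For the 4 pro-survival members it was 0.15, 0.08 and 0.05, and for the 5 pro-death members 0.03, 0.12 and 0.09.

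A contrast of the mean of the 3 KO groups against the mean of the 3 Het groups, added after seeing the data, called 2 of the 9 members, where 5.73% of all genes were called and 20.5% had an unadjusted p under 0.05. Bcl2l1 rose by 0.66 ± 0.13 on the log2 scale, a fold of 1.58 (95% interval of the log2 change 0.41 to 0.92, edgeR adjusted p = 0.00187), and was higher in KO in 3 of 3 populations. Bak1 rose by 0.46 ± 0.12, a fold of 1.37 (0.22 to 0.70, edgeR adjusted p = 0.018). The other 7 did not pass: Bcl2 0.15 ± 0.11, Bid 0.12 ± 0.12, Bad 0.07 ± 0.17, Bcl2l11 0.07 ± 0.18, Bcl2l2 -0.11 ± 0.14 and Bmf -0.83 ± 0.42 (edgeR adjusted p = 0.257), beside Mcl1 above. DESeq2, limma-trend and limma on the deposited table each called 2 members as well. The 2 genes called were thus 1 pro-survival and 1 pro-death member. Of all genes called in this contrast 927 rose and 303 fell under the TMM scaling used, and 632 rose and 350 fell with RLE size factors.

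This contrast counts the 3 populations of a replicate number as separate samples, although their cells may come from the same pooled mice. With same-numbered libraries averaged first, which leaves 3 KO against 3 Het values, the changes were 0.65 for Bcl2l1 and 0.44 for Bak1, and limma's adjusted p was 0.118 and 0.311, so that both calls were lost. The Bak1 call was also lost without MPP1 KO 1 (log2 change 0.40, edgeR adjusted p = 0.0751), without MPP2 KO 1 (0.39, edgeR adjusted p = 0.0684) and without HSC KO 1 and HSC Het 2_3 together (0.43, edgeR adjusted p = 0.0631). The Bcl2l1 call was kept in 19 of 19 fits with libraries left out, but its change in HSC alone was 0.41 without HSC KO 1 and HSC Het 2_3, against 0.78 with them. Without that pair of libraries the changes in HSC were 0.35 for Bak1, 0.19 for Bad, 0.17 for Bcl2l11, 0.03 for Bcl2l2, -0.12 for Mcl1 and -0.13 for Bid, with Bcl2 and Bmf above.

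**Figure D3:**
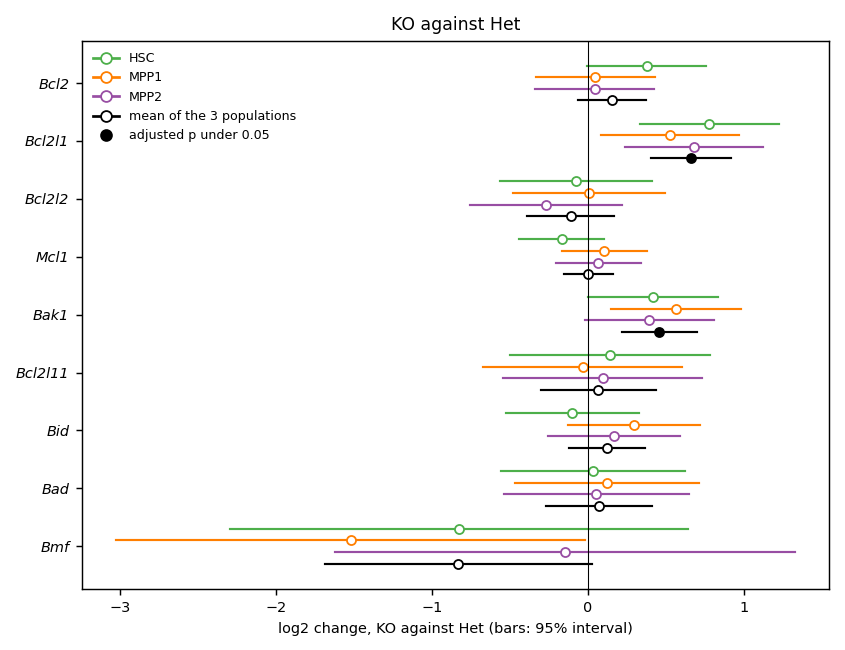
Log2 change from Het to KO (x axis) for each of the 9 genes, by population and as the mean of the 3 populations in black, with 95% intervals and filled points where the edgeR adjusted p is under 0.05. Only Bcl2l1 (0.66) and Bak1 (0.46) have filled points, both in the mean of the populations.

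Markers of another lineage moved with Bcl2l1 in part of the data. The summed level of 7 megakaryocyte and platelet genes, 0 of which were at 0, was 753 to 1001 CPM in HSC KO against 262 to 437 in HSC Het and 374 in Sham. In MPP1 the sums overlapped, at 792 to 1277 in KO and 411 to 1134 in Het, and in MPP2 they were 532 to 1248 and 569 to 1354. The part of this sum in the Bcl2l1 results was not tested. A sum over 14 stromal and endothelial genes was likewise 663 to 795 CPM in HSC KO against 430 to 582 in HSC Het, and its part in the HSC result was not tested. In sorted bulk cells a higher share of cells with the mRNA and more mRNA per cell cannot be told apart.

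Against Sham, which shares its KO libraries with the comparison above, 0 of 9 members passed the edgeR test in HSC, MPP1 or MPP2, where 2.28%, 0.121% and 0.629% of all genes were called. At an unadjusted p under 0.05 there were 2, 1 and 1 members (14.9%, 10.4% and 5.73% of all genes), DESeq2 called 1, 0 and 0 and limma-trend called 0 in each. The member DESeq2 called was Bcl2l1 in HSC, at 0.75 (DESeq2 adjusted p = 0.0431). By edgeR the log2 change of Bcl2l1 was 0.82 ± 0.25 in HSC (edgeR adjusted p = 0.0702), 0.29 ± 0.24 in MPP1 and 0.60 ± 0.25 in MPP2. For Bak1 it was 0.61 ± 0.23, 0.74 ± 0.23 and 0.24 ± 0.23, and for Mcl1 0.09 ± 0.15 in HSC, -0.003 ± 0.15 in MPP1 and -0.09 ± 0.15 in MPP2. The log2 changes of Bcl2, Bcl2l2, Bcl2l11, Bid, Bad and Bmf ran from -0.13 (Bmf) to 0.43 (Bcl2) in HSC, from -0.66 (Bmf) to 0.43 (Bid) in MPP1 and from -0.38 (Bcl2l2) to 0.50 (Bcl2l11) in MPP2. Without HSC KO 1 and HSC Het 2_3 the change in HSC was 0.59 for Bcl2l1 and 0.23 for Bcl2.

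Het against Sham, which differ in the drug and in the alleles the labels name, gave 0 of 9 members past the edgeR test in each population, and 0% of all genes were called in each. At an unadjusted p under 0.05 there were 0 members in each (6.92%, 0.965% and 5.32% of all genes), and DESeq2 and limma-trend called 0. The log2 change of Bcl2l1 was 0.04 ± 0.24 in HSC, -0.24 ± 0.24 in MPP1 and -0.08 ± 0.24 in MPP2. For Bak1 the values were 0.19 ± 0.23, 0.18 ± 0.23 and -0.15 ± 0.23. The log2 changes of the other 7 members, Bcl2, Bcl2l2, Mcl1, Bcl2l11, Bid, Bad and Bmf, ran from 0.04 (Bcl2l11) to 0.70 (Bmf) in HSC, from -0.11 (Mcl1) to 0.87 (Bmf) in MPP1 and from -0.35 (Bad) to 0.60 (Bmf) in MPP2. With 2 Sham libraries the 95% intervals were wide, from -0.73 to 0.25 for Bcl2l1 in MPP1 and from -0.97 to 2.37 for Bmf in HSC.

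The change from Het to KO was then compared between populations. For MPP1 against HSC, MPP2 against MPP1 and MPP2 against HSC, 0 of 9 members passed the edgeR test of the difference, where 0%, 0% and 0.0326% of all genes were called. At an unadjusted p under 0.05 there were 0 members in each (4.87%, 2.39% and 7.29% of all genes), and DESeq2 and limma-trend called 0. For Bcl2l1 the KO change in MPP1 minus that in HSC was -0.25 (95% interval -0.88 to 0.37), and for MPP2 minus HSC it was -0.10 (-0.72 to 0.52). Both turned sign without HSC KO 1 and HSC Het 2_3, to 0.12 and 0.27, and neither passed. For Bak1 the same differences were 0.15 (-0.44 to 0.73) and -0.02 (-0.61 to 0.56). Those of Bcl2, Bcl2l2, Mcl1, Bcl2l11, Bid, Bad and Bmf ran from -0.69 (Bmf) to 0.40 (Bid) for MPP1 minus HSC and from -0.33 (Bcl2) to 0.68 (Bmf) for MPP2 minus HSC. For MPP2 minus MPP1 the 9 members ran from -0.27 (Bcl2l2) to 1.38 (Bmf).

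Between populations, the member called most often was the BH3-only gene Bid, which had 40.6 and 27.7 CPM in MPP2 Sham against 21.4 and 15.9 in HSC Sham and 15.2 and 21.5 in MPP1 Sham. In KO it had 34.5, 28.1 and 29.1 in MPP2 against 18.6, 20.6 and 20.6 in HSC. In Het it had 30.4, 29.0 and 22.3 in MPP2 against 18.7, 19.0 and 26.4 in HSC. The groups were apart in Sham and KO and overlapped in Het through HSC Het 4 and MPP2 Het 4. Sham held 2 libraries in each population, and the share of all genes apart in this way is not reported here. Among Sham libraries Bid rose by 0.87 ± 0.26 from HSC to MPP2 (edgeR adjusted p = 0.0127) and by 0.90 ± 0.26 from MPP1 to MPP2 (edgeR adjusted p = 0.0162). It was the only member called in those comparisons, 1 of 9 in each, where 21.3% and 14.9% of all genes were called (31.1% and 26.9% at an unadjusted p under 0.05). Each call rests on single libraries: it was lost without MPP2 Sham 2_3, at 0.57 and 0.59, and also without HSC Sham 4 (0.68) or MPP1 Sham 2_3 (0.74), respectively.

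Within Het and within KO, 0 of 9 members passed the edgeR test from HSC to MPP2, where 18.0% and 6.04% of all genes were called. At an unadjusted p under 0.05 there were 2 members in Het and 1 in KO (28.4% and 18.1% of all genes), DESeq2 called 2 and 1, and limma-trend 1 and 0. In Het the 2 members were Mcl1, at -0.36 ± 0.13 (edgeR adjusted p = 0.0589), and Bmf, at -1.96 ± 0.74 (edgeR adjusted p = 0.0672), and in KO it was Bid, at 0.61 ± 0.21 (edgeR adjusted p = 0.0779). From MPP1 to MPP2, 0 of 9 passed in Het and in KO, where 7.49% and 0.969% of all genes were called. There 2 and 0 members had an unadjusted p under 0.05 (18.9% and 10.5% of all genes), and DESeq2 and limma-trend called 0. From HSC to MPP1, 0 of 9 passed in Het, KO and Sham, where 0.014%, 0% and 0.00466% of all genes were called. There 1, 0 and 0 members had an unadjusted p under 0.05 (9.89%, 2.42% and 4.64% of all genes), and DESeq2 and limma-trend called 0. From HSC to MPP2 the 9 log2 changes ran from -1.96 (Bmf) to 0.35 (Bid) in Het and from -1.27 (Bmf) to 0.61 (Bid) in KO, and from MPP1 to MPP2 from -1.17 (Bmf) to 0.43 (Bid) and from -0.45 (Bcl2l2) to 0.30 (Bid). From HSC to MPP1 they ran from -0.79 (Bmf) to 0.32 (Bcl2) in Het, from -1.49 (Bmf) to 0.31 (Bid) in KO and from -0.96 (Bmf) to 0.54 (Bcl2l1) in Sham.

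With the 3 genotypes averaged, a contrast added after seeing the data, 3 of 9 members differed between MPP2 and HSC, where 32.2% of all genes were called (40.7% at an unadjusted p under 0.05), so the share of members called was close to that of all genes. The members' median log2 change was 0.04, beside -0.19 over all genes. Bid rose by 0.61 ± 0.13 (edgeR adjusted p = 0.000344), and Bak1 by 0.33 ± 0.13 (edgeR adjusted p = 0.0421). Bmf fell by 1.69 on the log2 scale (SE 0.46, edgeR adjusted p = 0.0044), a fold of 0.309. Bmf had 0.597 to 1.71 CPM in the 8 MPP2 libraries against 1.499 to 6.85 in the 8 HSC libraries, and within each genotype all MPP2 libraries lay below all HSC libraries. The same held for 5.66% of all genes. On the deposited normalized table the log2 change of Bmf was -0.59, with limma's adjusted p = 0.0661, and the call was lost. The Bak1 call held in 8 of 17 fits with libraries left out and in 3 of 7 other alternatives. It was lost without HSC KO 4 (log2 change 0.28), HSC Het 1 (0.29), HSC Sham 4 (0.31), MPP2 KO 1 (0.26), MPP2 KO 4 (0.34), MPP2 Het 2_3 (0.31), MPP2 Het 4 (0.34), MPP2 Sham 2_3 (0.34) or MPP2 Sham 4 (0.33), with edgeR adjusted p from 0.0528 to 0.127.

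From MPP1 to MPP2, averaged in the same way, Bid rose by 0.54 ± 0.13 (edgeR adjusted p = 0.00182) and Bcl2l1 fell by 0.49 on the log2 scale (SE 0.14, edgeR adjusted p = 0.00654), 2 of 9 members where 25.3% of all genes were called (34.2% at an unadjusted p under 0.05). Bcl2l1 passed in no single genotype by edgeR, at -0.49 ± 0.22 in Het, -0.33 ± 0.22 in KO and -0.65 ± 0.27 in Sham. Without MPP1 Sham 2_3 or MPP2 Sham 2_3 the Bcl2l1 call was lost, at -0.37 and -0.40. From HSC to MPP1, averaged, 0 of 9 passed by edgeR where 1.04% of all genes were called. There 1 member, Bmf, had an unadjusted p under 0.05 (10.7% of all genes did), at a log2 change of -1.08 ± 0.45 and an edgeR adjusted p = 0.362, and DESeq2 and limma-trend called 0. From HSC to MPP2 the log2 change was -0.14 ± 0.08 for Mcl1, 0.11 ± 0.12 for Bcl2 and -0.22 ± 0.13 for Bcl2l1, none past the edgeR test. Mcl1 was called lower there in 2 of 24 alternatives. These were DESeq2 (-0.18, DESeq2 adjusted p = 0.036) and the deposited table (-0.52, limma's adjusted p = 2.48e-06). The deposited table also called Mcl1 lower from MPP1 to MPP2, averaged, at -0.34 (limma's adjusted p = 0.000744). The 3 averaged contrasts share libraries pairwise.

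**Figure D4:**
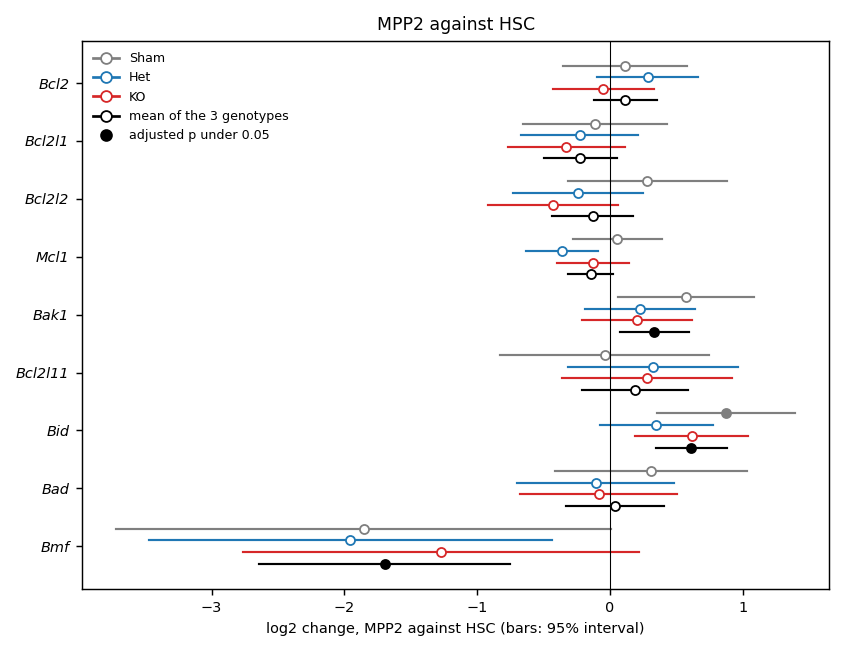
Log2 change from HSC to MPP2 (x axis) for each of the 9 genes within Sham, Het and KO and as the mean of the 3 genotypes in black, with 95% intervals and filled points where the edgeR adjusted p is under 0.05. Bid is higher in MPP2, with filled points in Sham (0.87) and in the mean (0.61). In the mean Bak1 (0.33) is higher and Bmf (-1.69) is lower, also with filled points.

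The overlapping gene Bcl2l13 on the other strand from Bid also rose in MPP2, by 0.97 ± 0.12 over HSC (edgeR adjusted p = 2.31e-07), at 78.4 to 141 CPM in MPP2 against 33.1 to 63.3 in HSC. How much of the Bid counts in MPP2 came from the 628 shared bases was not tested. Ggnbp1, the partner of Bak1, stood at 0.833 to 5.79 CPM, below Bak1 in every library, and its log2 change between KO and Het was 0.07 ± 0.35 as the mean of the populations. Markers of late erythroid cells, a sum over 9 genes of which 3 or 4 were at 0 in a group, were 154 to 998 CPM in MPP2 against 5.65 to 255 in HSC. A sum over 11 genes listed as B cell markers, Cd74 and H2-Aa among them (0 at 0), was 7.81 to 42.8 CPM in MPP2 and 95.2 to 166 in HSC. Values of its single genes are not reported here, and the sum is not read as a share of B cells. The part of either sum in the Bid and Bmf differences was not tested. The neutrophil sum, over 12 genes, reached 3530 CPM in MPP2 Het 2_3, against 56.3 to 1178 in all other libraries.

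Pro-survival and pro-death levels were set against each other as the mean log2 level per kilobase of the 4 pro-survival genes minus that of the 5 pro-death genes. No test is given, since the members were chosen. Values are means ± SD over 3 KO, 3 Het or 2 Sham libraries. HSC had a difference of 2.20 ± 0.24 in KO, against 1.93 ± 0.23 in Het and 1.94 ± 0.13 in Sham. Apart from HSC KO 1 (2.46) and HSC Het 2_3 (1.66), the HSC libraries had 2.17 and 1.98 in KO and 2.07 and 2.05 in Het, and overlapped. In MPP1 it was 2.37 ± 0.03 in KO, 2.08 ± 0.20 in Het and 2.43 ± 0.01 in Sham, and in MPP2 2.00 ± 0.08, 2.01 ± 0.09 and 2.02 ± 0.29. Only in MPP1 did KO (2.35 to 2.40) lie above Het (1.89 to 2.29) without overlap, and Sham lay as high as KO there. Bmf weighs on this mean as much as any other gene despite its low counts. Without Bmf, MPP1 had 1.35 ± 0.01 in KO and 1.41 ± 0.23 in Het, with overlap.

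The ratio of summed levels, in which abundant genes weigh more, was lower in MPP2. It was 1.69 to 2.17 in the 8 MPP2 libraries against 2.42 to 3.36 in the 8 HSC libraries, without overlap, and 2.16 to 3.53 in MPP1. The pro-death sum was 43.9 to 59.8 CPM per kilobase in MPP2 and 29.5 to 48.8 in HSC, while the pro-survival sum was 87.9 to 105 and 83.9 to 124. Leaving Bmf out of the mean log2 difference gave the same order, with 0.687 to 1.21 in MPP2 libraries and 1.26 to 1.63 in HSC. That reading is not independent of the ratio of sums, since Bmf, which fell in MPP2, made up a median of 0.246% of the summed level. Leaving out a pro-death gene also lowers the mean log2 difference more where that gene is lower, so the order without Bmf is in part given by the choice. Between KO and Het the ratio of sums overlapped in every population, with means of 2.51 ± 0.08 and 2.81 ± 0.48 in HSC, 2.26 ± 0.09 and 2.59 ± 0.40 in MPP1 and 1.93 ± 0.22 and 2.06 ± 0.10 in MPP2. Over all 9 genes the mean log2 difference overlapped, at 1.81 to 2.23 in MPP2 and 1.66 to 2.46 in HSC.

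**Figure D5:**
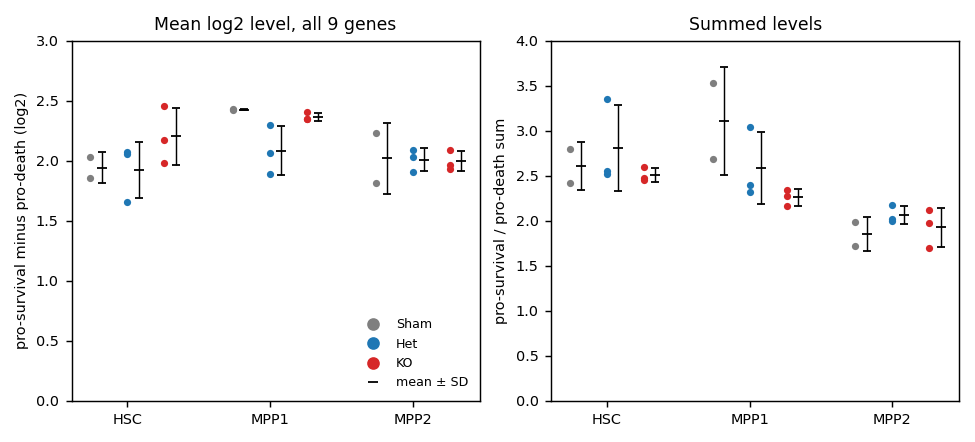
Pro-survival against pro-death level per library, as the difference of mean log2 levels per kilobase (left) and as the ratio of summed levels per kilobase (right), by population and genotype, with the mean ± SD of each group (n = 3 for KO and Het, n = 2 for Sham). The ratio of sums is 1.69 to 2.17 in MPP2 and 2.42 to 3.36 in HSC, while the difference of means overlaps between the populations. Bid, whose exons overlap those of Bcl2l13, is part of the pro-death sum, and its part in the ratio was not tested.

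The p53-controlled members of the family were read in the same libraries. Bax, the effector related to BAK, had 28.7, 32.8 and 37.8 CPM in HSC KO against 11.2, 18.4 and 19.5 in Het, and 51.5, 44.9 and 54.0 in MPP2 KO against 25.6, 23.8 and 18.9 in Het. It rose by 1.02 ± 0.22 in HSC (edgeR adjusted p = 0.0234) and by 1.14 ± 0.22 in MPP2 (edgeR adjusted p = 0.00654). In MPP1 it had 49.4, 34.3 and 41.6 CPM in KO against 23.2, 18.5 and 19.8 in Het, without overlap, at a log2 change of 1.03 ± 0.22 that did not pass (edgeR adjusted p = 0.0624). Bbc3, which encodes PUMA, rose by 1.55 ± 0.35 in MPP2 (edgeR adjusted p = 0.0348). Of the 3 listed genes 1 passed in HSC, 0 in MPP1 and 2 in MPP2, where 0.615%, 0.0559% and 0.415% of all genes were called. In MPP1, 2 of them had an unadjusted p under 0.05, DESeq2 called 1 and limma-trend 0. This set is known to respond to p53 and was chosen with earlier results of these data known, so its values are a description here.

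Other parts of the pathway were read from lists of 72 genes in 9 groups. In the mean of the populations, KO against Het, where 5.73% of all genes were called, 2 of 7 apoptosome and caspase genes rose, among them Apaf1, the scaffold of the apoptosome, by 0.40 ± 0.11. Of 3 voltage-dependent anion channels of the outer mitochondrial membrane 2 rose, Vdac2 (0.30 ± 0.09) and Vdac3 (0.35 ± 0.09), where DESeq2 called 2 and limma-trend 1. Of 9 inhibitor-of-apoptosis and mitochondrial genes 1 rose, Aifm1 (0.39 ± 0.09). Casp8, the protease that activates BID, was the 1 of 8 death receptor genes that rose (0.33 ± 0.08). Of 12 genes that sequester or phosphorylate BAD, BIM and BMF, 1 rose, the 14-3-3 gene Ywhaz (0.45 ± 0.08). Of 10 transcription factors and receptors upstream of the family 0 rose and 1 fell, and DESeq2 and limma-trend each called 1. Of 13 other family members tested 0 passed by edgeR, with 3 at an unadjusted p under 0.05 and 0 by DESeq2 and limma-trend, and of 6 genes of MCL1 turnover 0 passed, with 0 at an unadjusted p under 0.05 and 0 by DESeq2 and limma-trend. Within single populations 0 genes of the other 8 lists passed by edgeR, with 0 to 5 genes of a list at an unadjusted p under 0.05, 0 or 1 by DESeq2 and 0 by limma-trend. Like the members' contrast, the values for the mean of the populations treat the populations of a number as separate samples. For the listed genes no values on means of same-numbered libraries, where both member calls were lost, are reported here.

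From HSC to MPP2 in Het, where 18.0% of all genes were called, 4 of 7 apoptosome and caspase genes rose. Among them were Cycs, which encodes cytochrome c, by 1.13 ± 0.24, and Apaf1 by 0.63 ± 0.19. All 3 Vdac genes rose, by 0.48 to 0.80. Of 10 upstream factors and receptors 1 rose, Myb (0.72 ± 0.14), and 6 fell, among them Stat3 (-0.86 ± 0.14) and Kit (-0.68 ± 0.14). Of 12 genes of sequestration and phosphorylation 3 rose and 2 fell, the survival kinases Pim1 (-1.15 ± 0.21) and Pim2 (-1.33 ± 0.35). Of the 13 other family members tested Bcl2l13 rose and Bcl2l14 fell (-1.64 ± 0.56). Of 9 inhibitor-of-apoptosis and mitochondrial genes, Birc5 (2.16 ± 0.48), which is also a gene of cell division, and Aifm1 (0.83 ± 0.16) rose and Birc2 (-0.59 ± 0.16) fell. Of 8 death receptor genes Tnfrsf1a fell (-0.85 ± 0.22), and of the p53-controlled genes Bbc3 fell (-1.11 ± 0.35). Of 6 MCL1 turnover genes 0 passed by edgeR, with 1 at an unadjusted p under 0.05 and 0 by DESeq2 and limma-trend. From MPP1 to MPP2 in Het 7.49% of all genes were called. Among the listed genes that rose were Bcl2l13 (0.88 ± 0.20), Vdac2 (0.57 ± 0.16) and Myb (0.76 ± 0.14). Among those that fell were Tnfrsf1a (-0.70 ± 0.22), Pim1 (-0.86 ± 0.21) and Stat3 (-0.71 ± 0.14). Of 7 apoptosome and caspase genes 1 rose there, and of 10 upstream factors and receptors 1 rose and 2 fell. From HSC to MPP1 in Het, where 0.014% of all genes were called, 0 genes of the 9 lists passed by edgeR, with 0 to 2 of a list at an unadjusted p under 0.05 and 0 by DESeq2 and limma-trend.

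Across the 24 libraries the members did not follow a single pattern. By Pearson correlation of log2 CPM, a description over libraries that share population, genotype and scaling, the strongest positive pair among members was Bak1 and Bid (r = 0.61), both pro-death, followed by the pro-survival pair Bcl2 and Bcl2l1 (r = 0.54). Bmf ran opposite to Bid (r = -0.63) and Bak1 (r = -0.61). Among 10258 genes compared (10259 for Bmf) with a mean of at least 5 CPM, the most alike to Bcl2l1 were Nckap1l, Arhgef2 and Ptgs1 (r = 0.89 for each), and to Bak1 Actb (0.89), Ndufa2 (0.88) and Pitpna (0.87). For Bid they were Kcnab2 (0.84), Osgepl1 (0.82) and Trp53 (0.82), and for Mcl1 Gstt2 (0.81), D10Wsu52e (0.80) and Swap70 (0.78). Bcl2 was most like Slc7a6 (0.85), Hif1a (0.77) and Micall2 (0.77), Bad most like Serf2 (0.84), Acbd3 (0.81) and Zfp512 (0.80), and Bmf most like Lyplal1 (0.81), Zbtb7b (0.81) and Irf9 (0.77). Bcl2l2 was most like Zscan25 (0.69), the small Cajal body RNA gene Scarna10 (0.68) and Lemd2 (0.64), and Bcl2l11 most like Pwwp2a (0.69), Prr11 (0.67) and Churc1 (0.66).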

How the data were processed

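RNA was sequenced as paired-end reads of 50 bases on an Illumina sequencer after rRNA depletion with a stranded kit, per the labels' protocols. The authors deposited raw read counts per gene for each of the 24 libraries with the gene length, and the submitters' processing notes name TopHat2 2.0.9 and Bowtie 1.0.0, the trimmer Trimmomatic 0.33, the counter featureCounts, FastQC, R 3.1.2 with edgeR, and the mm9 build, without their order. The strand setting of the counting is not given in the sources used here. They also deposited a normalized signal table of 12186 genes, which the authors named as CPM. Its columns have nearly the same distribution, a step that no source states, and it served only as an alternative, on the log2(value + 1) scale. In 1 count file the genes stood in another order, so that libraries were joined by symbol.

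Counts were scaled with TMM factors and fitted with edgeR 4.0.16 (quasi-likelihood, robust) in R 4.3.3, in 1 fit over the 9 groups with 15 residual degrees of freedom. The 21456 of 23364 genes kept by filterByExpr (minimum count 10) were tested, with Benjamini-Hochberg adjustment over all of them and a threshold of 0.05. There were 21 planned comparisons and 4 added after seeing the data. Fold changes are log2 values of the edgeR fit at its default prior count. A prior count of 2 was used only for the log2 CPM of the correlations and of limma-trend. Standard errors were derived from the F statistic and are approximate, and intervals cover 95%. Depth was 18823971 to 53196624 counts, and low counts limit Bmf most. Alternatives were RLE size factors, no filter, DESeq2 1.42.0, limma 3.58.1, the deposited table, a replicate block, the compared groups alone and each library left out. The edgeR fit was also run on simulated data for KO against Het in HSC, and the outcome is not reported here. How often it would miss changes of the size seen in the members is therefore not given.

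The members and gene lists were chosen with earlier results of these data known. Single values of some listed pathway genes are not reported here, though the counts over a list include them. The rule was to name all 9 members in each comparison described: each has its value in KO against Het, and elsewhere members have a value or stand in a range whose ends are named. Of each list up to 4 genes past the test are named, by adjusted p, in KO against Het and in population comparisons among Het libraries, and otherwise counts alone. For likeness the 3 genes with the highest correlation over the libraries are taken, with a mean of at least 5 CPM, leaving out symbols of predicted genes, clones, microRNAs and small nucleolar RNAs by their spelling, which keeps small Cajal body RNAs. No protein sequences were used here.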

Additional observations from a re-analysis of the deposited data

How the results depend on the processing

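Of 3474 values of members under another setting, 3421 kept their direction or side of the threshold, 25 lost a call, 27 gained one and 1 reversed, and 289 that were not past the test had the other sign. The reversed value was Mcl1 from HSC to MPP2 in Sham, at -0.55 on the deposited table against 0.06 in the edgeR fit, and the cause was not tested. Counts of members called moved as follows. From HSC to MPP2 in Het it was 0, and 1 with RLE factors, limma-trend, the deposited table or the replicate block, and 2 with DESeq2. In KO it was 0, and 1 with DESeq2 or the compared groups alone, and in Sham 1, and 2 with DESeq2 or the deposited table. From MPP1 to MPP2 in Sham it was 1, and 3 on the deposited table and 2 with the replicate block or the compared groups alone. KO against Sham in HSC gave 0, and 1 with DESeq2. KO against Het in HSC gave 0, and 1 (Bcl2l1) on the deposited table or with the replicate block. KO against Het as the mean of the populations gave 2, 0 on means of same-numbered libraries and 1 without HSC KO 1 and HSC Het 2_3 together. The cause of these shifts was not tested. With each library left out, counts ran from 0 to 1 for MPP2 against HSC in Het and in Sham, from 0 to 2 for MPP2 against MPP1 in Sham, from 1 to 2 for KO against Het as a mean and from 1 to 3 for MPP2 against MPP1 as a mean. The replicate block gave Bcl2l1 in HSC, KO against Het, 0.77 (edgeR adjusted p = 0.0223). Pairing by replicate number was not established: in no comparison with 3 pairs did every pair's correlation exceed 0.1 (range -0.338 to 0.505), but 2 of 3 pairs did in each population comparison within KO and in KO against Het in MPP2. On the longest annotated transcript the median level per kilobase was 17.1 for Bcl2, above the 14.4 of Bak1, 1.97 for Bcl2l11 and 9.14 for Bid. As a log2 ratio of summed levels the balance was 1.33, 1.48 and 1.38 in HSC KO, Het and Sham, 1.17, 1.36 and 1.62 in MPP1, and 0.94, 1.04 and 0.89 in MPP2. RLE factors shifted the median of all genes by at most 0.0681. Depth limits Bmf, at 16 to 210 counts a library.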
